A study of Homo sapiens with 4 samples.

Results

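The genes described here are the core of the Notch pathway as measured in RNA recovered with the protein P5CS from NCI-H1299 cells, a long-established human line that the labels describe as lung adenocarcinoma. They are the receptors NOTCH1, NOTCH2 and NOTCH3, the ligands JAG1, JAG2 and DLL1, the nuclear factors RBPJ and MAML1, and the target genes HES1 and HEY1. The members are picked out by gene symbol, by a rule that holds no measured value, although the list was drawn up with earlier results of these data known. All 10 were present among the 21372 genes of the table. P5CS is the product of ALDH18A1 and makes a precursor of proline in mitochondria, and the question of the series is which RNAs this enzyme binds. The libraries hold either RNA pulled down with P5CS (P5CS IP, 2 libraries) or RNA of such cells labelled Input (input, 2 libraries). No treatment or engineered allele is named for either group, and no library labelled IgG or mock pull-down was analysed here, so each difference below compares P5CS IP with input and can also hold RNA that a pull-down retains without P5CS. The series title names RIP-seq, whereas its design text speaks of LACE-seq with antibodies to P5CS and to IgG. The group called input here follows the sample titles and columns, which say Input, and nothing else in the labels settles whether those libraries are starting RNA. The count columns of all libraries carry the word Cyto, which no label explains. The labels do not say whether replicates came from separate cultures. The p-values therefore take in only the scatter of these particular libraries, part or all of which may be technical.

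Notch signalling passes between touching cells. A ligand of the Jagged or Delta-like family on 1 cell binds a Notch receptor on its neighbour, proteases then cut the receptor, and the released intracellular domain enters the nucleus, where it joins the DNA-binding protein RBPJ and the co-activator Mastermind (MAML1). This complex switches on genes such as HES1 and HEY1, which encode transcriptional repressors. In the absence of the signal RBPJ holds the same genes down together with co-repressors.

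The sequence that RBPJ reads is shown here in the start regions of the target HES1, which had the second highest fold difference of the 10 genes, and of RBPJ, the member that differed in the other direction. Both windows come from RefSeq (GRCh38.p14, plus strand) and run from 250 bases before to 50 bases after a transcription start. Capitals mark the RBPJ core motif TGGGAA, or TTCCCA where it lies on the opposite strand. The HES1 window is chr3:194135898-194136197, and the RBPJ window is chr4:26319496-26319795.
HES1: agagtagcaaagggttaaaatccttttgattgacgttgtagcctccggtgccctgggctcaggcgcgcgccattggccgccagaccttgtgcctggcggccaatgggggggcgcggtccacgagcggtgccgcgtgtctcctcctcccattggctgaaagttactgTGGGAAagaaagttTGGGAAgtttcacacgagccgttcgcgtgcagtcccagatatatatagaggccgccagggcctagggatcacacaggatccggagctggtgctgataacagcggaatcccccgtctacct
RBPJ: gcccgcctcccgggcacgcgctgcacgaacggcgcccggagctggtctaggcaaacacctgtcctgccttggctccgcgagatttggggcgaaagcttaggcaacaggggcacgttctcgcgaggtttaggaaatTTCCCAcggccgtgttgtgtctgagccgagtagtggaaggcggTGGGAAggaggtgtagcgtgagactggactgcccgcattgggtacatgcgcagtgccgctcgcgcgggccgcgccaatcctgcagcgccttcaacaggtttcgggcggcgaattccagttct
The HES1 window holds the motif 2 times on the same strand, beginning 84 and 70 bases before the start. The RBPJ window, 1 of 5 listed for that gene, holds it once on each strand, at 72 and 115 bases before the start, and the other 4 RBPJ windows hold no match. No match was found in the windows of NOTCH1, NOTCH2, NOTCH3, JAG1, JAG2 and MAML1, and DLL1 and HEY1 were not searched. Of 35116 windows of this length in the RefSeq table, 24.0% hold the motif on either strand and 3.8% hold it at least 2 times. Only exact matches of TGGGAA or TTCCCA were marked, so other forms of the RBPJ site in these windows would be missed. A match describes these letters only, and the RNA libraries do not measure binding of RBPJ to DNA.

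Of the 10 genes, 9 were higher in RNA recovered with P5CS and 1, RBPJ, was lower. A gene counted as higher or lower when its adjusted p was under 0.05 (quasi-likelihood test of edgeR, adjusted by Benjamini-Hochberg over 17304 genes). By that rule 25.4% of all tested genes were higher and 25.6% lower. The median log2 fold change of the 10 genes was 1.18, against -0.01 over all tested genes. For each of the 9 higher genes both IP libraries lay above both inputs, as they did for 37.7% of all tested genes, and for RBPJ both lay below, as for 38.2%. The 10 genes held 0.138 and 0.141% of the counts of the 2 IP libraries, against 0.0564 and 0.0559% of the inputs, and NOTCH2 supplied 62.9 and 64.4% of these counts in the IPs and 65.6 and 65.7% in the inputs. All 10 passed the filter on low counts.

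**Figure D1:**
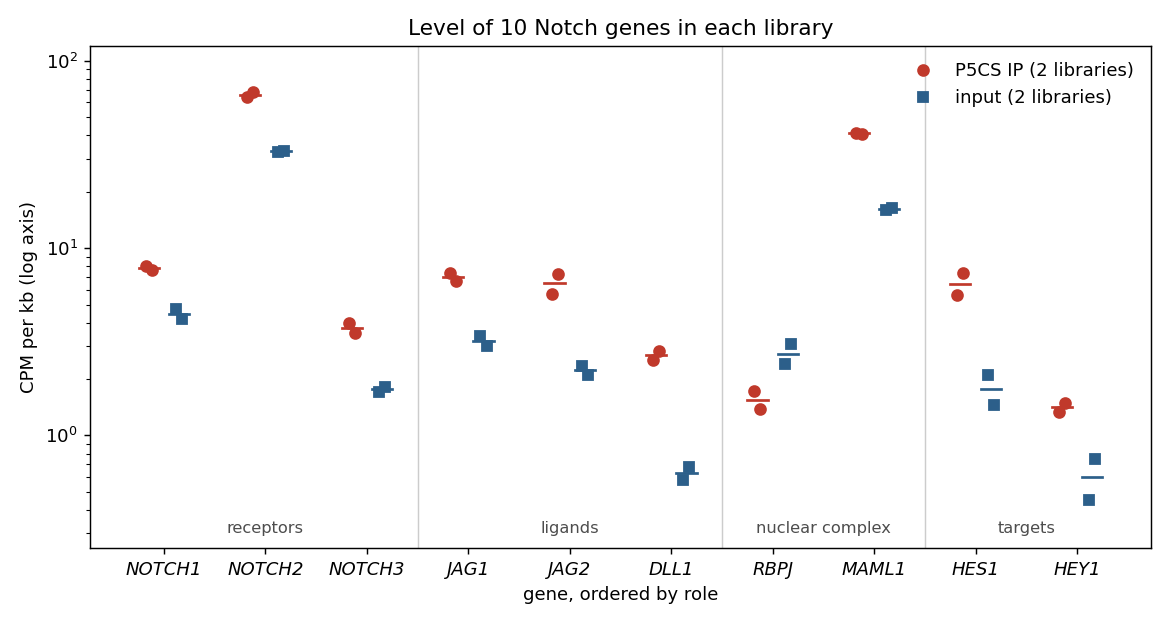
Level of each gene in each library, as CPM per kb of gene model on a log axis, with the 2 P5CS IP libraries (circles) left of the 2 inputs (squares) and a bar at each mean. NOTCH2 and MAML1 had the highest levels in both groups, and RBPJ was the only one of the 10 genes with both IP libraries below both inputs.

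The libraries held 34730866 and 31489455 counts in the P5CS IPs and 40911717 and 46339235 in the inputs. Levels are given below in CPM, the count scaled to a common library size after TMM, a factor that centres the bulk of the genes. Of 10 markers of lung adenocarcinoma and epithelium, 5 were in the table. Their summed level was 451.5 and 447.6 CPM in the IPs and 806.8 and 838.3 CPM in the inputs, nearly all of it from KRT8 and KRT18. The lung lineage factor NKX2-1 had 20 and 52 counts in the IPs and 8 and 0 in the inputs, and the epithelial surface protein gene EPCAM had 0 and 0 in the IPs and 8 and 6 in the inputs. The mesenchymal markers VIM, FN1 and CDH2 summed to 3579 and 3317 CPM in the IPs and 4507 and 4488 CPM in the inputs. Nearly all of this sum came from VIM, which was lower (log2 fold change -0.44, SE 0.0646). FN1 (0.99, SE 0.0857) and CDH2 (0.49, SE 0.102) were higher. Markers of blood, endothelium and fibroblasts each summed to at most 5.42 CPM in any library.

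The Notch receptors span the membrane and carry long rows of EGF-like repeats outside the cell. NOTCH2 (chromosome 1, 119911553 to 120069662, GRCh38) was by far the most abundant of them, with 785.4 and 835.5 CPM in the IPs and 402.5 and 406.4 CPM in the inputs. The replicates lay close together in both groups and the groups did not overlap. Its fold was 2.0, a log2 difference of 1.0 (SE 0.0726, 95% interval 0.84 to 1.16, adjusted p = 8.69e-07).

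NOTCH1 (chromosome 9, 136494433 to 136546048) had 77.8 and 73.9 CPM in the IPs and 45.8 and 40.5 CPM in the inputs. This was the smallest rise among the 9 higher genes, a log2 difference of 0.81 (SE 0.105, adjusted p = 6.68e-05). NOTCH3 (chromosome 19, 15159038 to 15200995) had 34.5 and 30.7 CPM in the IPs and 14.8 and 15.8 CPM in the inputs, a log2 difference of 1.09 (SE 0.141, adjusted p = 7.1e-05). The 95% intervals of the 3 receptors overlapped, at 0.58 to 1.05 for NOTCH1, 0.84 to 1.16 for NOTCH2 and 0.78 to 1.40 for NOTCH3.

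The receptors kept nearly the same proportions to each other in both kinds of RNA. Per kb of gene model, NOTCH2 made up 84.2 and 85.9% of the 3 receptors in the IPs and 83.6 and 84.6% in the inputs, and these ranges overlap. For every 100 counts per kb of NOTCH2 there were 6.22 and 5.21 of NOTCH3 in the IPs and 5.23 and 5.52 in the inputs. For NOTCH1 the values were 12.5 and 11.2 in the IPs and 14.4 and 12.6 in the inputs, just short of overlap. Such ratios within a library do not depend on the scaling between libraries, and the pairs were chosen with their values known. With 2 libraries a group an exact permutation test of a ratio cannot go below p = 0.333 (two-sided), so none is given.

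NOTCH2 has partial copies, the NOTCH2NL genes, which encode its N-terminal part and are nearly identical to it there, so the split of reads between them is uncertain. They were looked up after the values of NOTCH2 were seen. The 4 NOTCH2NL genes of the table together held 1765 and 1903 counts in the IPs and 1439 and 1650 in the inputs. That corresponds to 5.87 and 6.63% of the NOTCH2 counts in the IPs and 9.51 and 9.69% in the inputs. NOTCH2NLA was higher (log2 fold change 0.44, SE 0.133, adjusted p = 0.018) but not once the length trend described below was removed (-0.02), nor when the second IP library (0.32) or the first input (0.41) was left out, and NOTCH2NLB (0.26, SE 0.205) and NOTCH2NLC (0.21, SE 0.391) did not pass. NOTCH2NLR, with 28 and 2 counts in the IPs and 10 and 10 in the inputs, was not tested.

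The ligands were higher by folds of 2.19 to 4.25, against 1.76 to 2.13 for the receptors. Whether the 2 families differ was not tested. JAG1 (chromosome 20, 10637684 to 10673999), a Jagged ligand, had 43.5 and 39.7 CPM in the IPs and 20.1 and 17.9 CPM in the inputs, a log2 difference of 1.13 (SE 0.131, adjusted p = 3.09e-05). JAG2 (chromosome 14, 105140995 to 105168776), the other Jagged ligand, had 33.3 and 42.3 CPM in the IPs and 13.7 and 12.3 CPM in the inputs, a log2 difference of 1.54 (SE 0.158, adjusted p = 1.24e-05). The 2 IP libraries of JAG2 stood further apart than those of JAG1, and both remained above the inputs.

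DLL1 (chromosome 6, 170282206 to 170291078), a Delta-like ligand, had the largest difference of the 10 genes. It had 366 and 367 counts in the IPs and was scarce in the inputs, with 82 and 108. In CPM this was 9.57 and 10.7 in the IPs and 2.18 and 2.58 in the inputs. The fold was 4.25, a log2 difference of 2.09 (SE 0.256, 95% interval 1.52 to 2.65, adjusted p = 4.77e-05), higher than in 94.7% of all tested genes. The annotation of DLL1 overlaps that of FAM120B, and the strand setting of the counting is not given, so reads of the pair may be mixed. FAM120B had 1554 and 1452 counts in the IPs and 1346 and 1236 in the inputs, a log2 difference of 0.34 (SE 0.128, adjusted p = 0.0433). It did not pass under upper-quartile scaling (0.32), after removal of the length trend (0.12), or when the second IP library (0.35) or the second input (0.21) was left out.

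Within each library the Delta-like ligand took more room relative to JAG1 in the IP than in the input. For every 100 counts per kb of JAG1 there were 34.6 and 42.3 of DLL1 in the IPs and 17.0 and 22.7 in the inputs. The same ratio for JAG2 was 77.8 and 108.4 in the IPs and 69.3 and 69.9 in the inputs. JAG1 accordingly made up 47.1 and 39.9% of the 3 ligands per kb in the IPs and 53.7 and 51.9% in the inputs. None of these 3 ratios overlapped between the groups. All 3 rest on the JAG1 counts, and the JAG1 share follows from the other ratios, so they are not 3 separate results. A lack of overlap is also common with so few libraries. Among all tested genes, both IP libraries lay above both inputs in CPM for 37.7% and below both for 38.2%.

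The 2 nuclear partners went in opposite directions. MAML1 (chromosome 5, 179732822 to 179777283), the co-activator, had 237.3 and 235.4 CPM in the IPs and 91.3 and 94.2 CPM in the inputs. Its replicates were nearly equal, and the log2 difference was 1.35 (SE 0.0806, 95% interval 1.17 to 1.53, adjusted p = 2.08e-07). RBPJ (chromosome 4, 26105449 to 26435131), the DNA-binding factor, had 13.1 and 10.5 CPM in the IPs and 18.2 and 23.2 CPM in the inputs. The highest IP value of RBPJ was below the lowest input value, and its log2 difference was -0.81 (SE 0.187, 95% interval -1.23 to -0.40, adjusted p = 0.00383). Only 24.1% of tested genes had a lower fold change than RBPJ.

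For every 100 counts per kb of MAML1 there were 4.17 and 3.38 of RBPJ in the IPs and 15.1 and 18.6 in the inputs. The mean ratio was 4.47 times as high in the input. Relative to NOTCH2 the ratio of RBPJ was 2.7 and 2.04 in the IPs and 7.35 and 9.26 in the inputs. RBPJ has 18 RefSeq transcripts, the most of the 10 genes, and 5 other RefSeq genes lie within or across its span. None of those 5 has a row in the table under its RefSeq symbol. RefSeq also lists pseudogenes of RBPJ elsewhere in the genome, so its reads may in part have been shared with them.

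Both target genes were higher in the IP. HES1 (chromosome 3, 194136148 to 194138732), whose start region is printed above, had 338 and 396 counts in the IPs and 124 and 96 in the inputs. In CPM this was 8.83 and 11.5 in the IPs and 3.30 and 2.29 in the inputs, without overlap. The fold was 3.65, a log2 difference of 1.87 (SE 0.281, adjusted p = 0.000216). HEY1 (chromosome 8, 79764010 to 79767767), a related repressor gene, had 211 and 211 counts in the IPs and 70 and 130 in the inputs. Its log2 difference of 1.23 (SE 0.337, 95% interval 0.48 to 1.97, adjusted p = 0.0105) had the widest interval of the 10, and the inputs differed from each other more than the IPs did. Its value was 0.91 without the first input library (adjusted p = 0.0483) and 1.65 without the second (0.00196), each with the single remaining input assumed to vary as the IPs do.

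**Figure D2:**
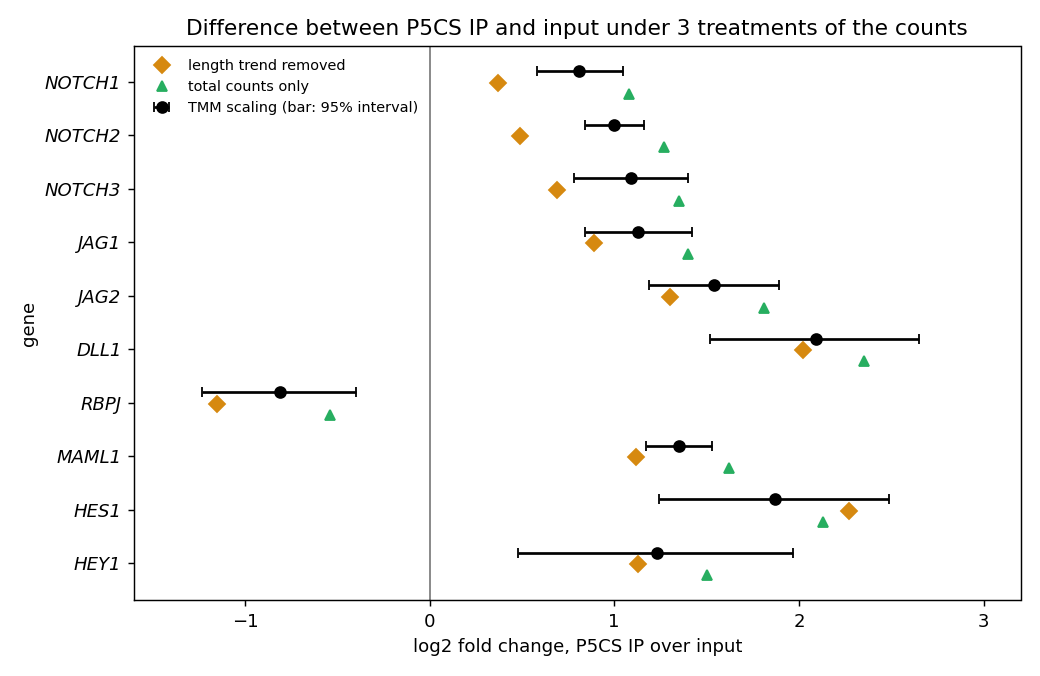
Log2 fold change of each gene, P5CS IP over input, with TMM scaling (circles, 95% interval), with the trend on gene length removed (diamonds) and with total counts alone (triangles). RBPJ lies below 0 and the other 9 above 0 under each of the 3. With the length trend removed the receptors stand lower and HES1 stands higher.

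The order of the levels, in CPM per kb of gene model, was much the same in both kinds of RNA except for RBPJ. In the IP NOTCH2 (65.8 ± 2.88), MAML1 (41.1 ± 0.235), NOTCH1 (7.80 ± 0.285) and JAG1 (7.01 ± 0.451) led. JAG2 (6.48 ± 1.09), HES1 (6.47 ± 1.21), NOTCH3 (3.75 ± 0.306) and DLL1 (2.68 ± 0.21) followed in the IP, and RBPJ (1.55 ± 0.238) and HEY1 (1.41 ± 0.108; SD, n = 2 each) came last. In the input the order ran NOTCH2 (32.9 ± 0.225), MAML1 (16.1 ± 0.363), NOTCH1 (4.44 ± 0.38), JAG1 (3.2 ± 0.269), RBPJ (2.73 ± 0.461), JAG2 (2.23 ± 0.173), HES1 (1.77 ± 0.452), NOTCH3 (1.77 ± 0.0782), DLL1 (0.63 ± 0.0743) and HEY1 (0.602 ± 0.213; SD, n = 2 each). Neighbours whose libraries overlapped were JAG1 with JAG2, JAG2 with HES1, and RBPJ with HEY1 in the IP. In the input they were JAG1 with RBPJ, HES1 with NOTCH3, and DLL1 with HEY1. RBPJ was the ninth of the 10 in the IP and the fifth in the input.

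Long gene models were in general higher in the P5CS IP, and most of the 10 genes are long. Across all 17304 tested genes Spearman's correlation of the log2 fold change with gene model length was 0.273, a description across genes that share the same 4 libraries. Of genes of 8000 nt or more, 45.3% were higher and 13.9% lower, and all 3 receptors, at 8680 to 12311 nt, fall in this class. From 4000 to under 8000 nt, where JAG1, JAG2, MAML1, HEY1 and RBPJ fall, 34.7% were higher and 20.4% lower. The gene model length of HEY1, 4122 nt, is above the 3758 nt spanned by its RefSeq coordinates. By that span HEY1 would fall in the next shorter class. DLL1, at 3779 nt, lies in the class from 2000 to under 4000 nt, where 22.1% were higher and 27% lower. HES1, at 1575 nt, is the shortest of the 10 genes and lies in the class under 2000 nt, where 10.2% were higher and 35.0% lower, with a class median of -0.57 in log2 fold change.

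**Figure D3:**
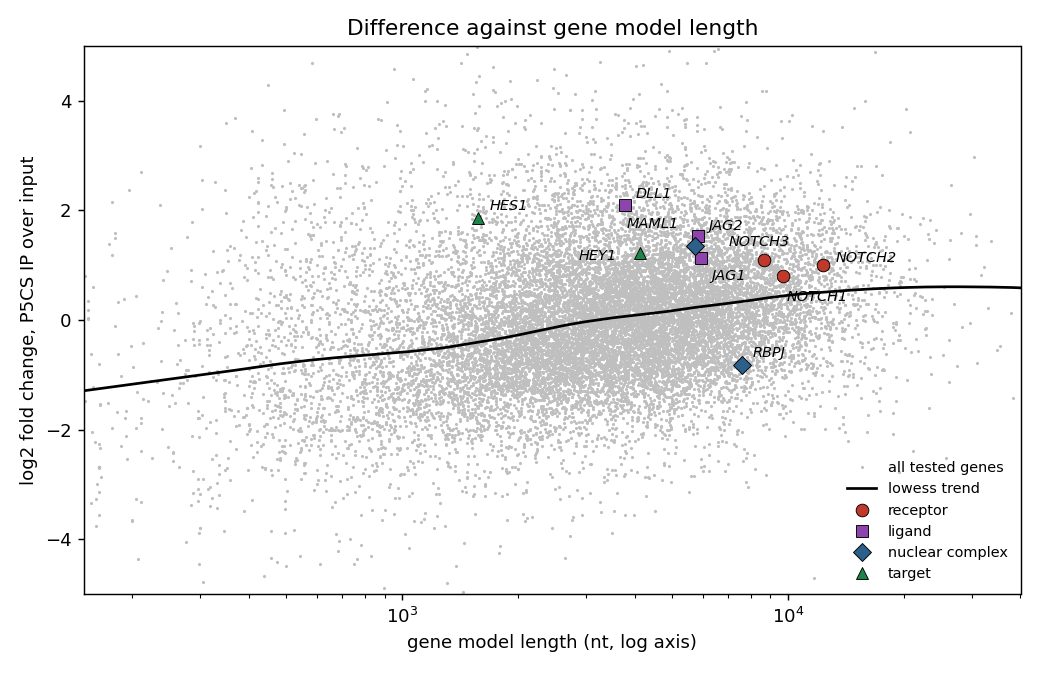
Log2 fold change, P5CS IP over input, against gene model length on a log axis, for all tested genes (grey, 337 outside the axes), their lowess trend (line) and the 10 Notch genes by role. The receptors lie at the long end closest to the trend, whereas HES1 and DLL1 lie furthest above it and RBPJ lies below it.

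With this trend removed in the fit, all 10 calls remained and the order of the differences changed. The receptors came down to log2 differences of 0.37 for NOTCH1 (adjusted p = 0.0125), 0.49 for NOTCH2 (0.000199) and 0.69 for NOTCH3 (0.00187). The ligands stood at 0.89 for JAG1, 1.30 for JAG2 and 2.02 for DLL1, and MAML1 at 1.12 and HEY1 at 1.13. HES1 then had the highest value of the 10 genes, 2.27 (adjusted p = 6.55e-05), and RBPJ the lowest, -1.15 (0.000434), all by the edgeR quasi-likelihood test with Benjamini-Hochberg adjustment. Over all genes this fit called 23.8% higher and 25.3% lower. With total counts alone as the scale the 9 higher genes ran from 1.08 (NOTCH1) to 2.35 (DLL1) and RBPJ stood at -0.54 (adjusted p = 0.0314), while all genes had a median of 0.25, with 32.4% higher and 18.6% lower.

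In the authors' deposited table the same 9 genes carry the mark for enrichment, as do 19.0% of its genes, and RBPJ does not. The deposited log2 fold changes there run from 0.83 for NOTCH1 to 2.11 for DLL1, with RBPJ at -0.79 and an adjusted p of 0.00221. These values come from the same counts and are no separate measurement.

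The genes whose 4 library values ran most like those of DLL1, which had the largest difference of the 10 Notch genes, were KIAA2026, MSL2 and BAHCC1. Their root-mean-square distance from DLL1 in centred log2 CPM over 4 libraries was 0.0168, 0.0172 and 0.034. With so few libraries a near match is common, and 383 of 17303 genes lay within 0.2.

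The other genes of the pathway were less uniform than the core. Of 60 listed, 56 were in the table and all 56 were tested, of which 28 were called higher, 11 lower and 17 neither. Their median log2 fold change was 0.46. Higher genes made up 71.8% of these calls and 82.9% with total counts alone (34 higher, 7 lower), against 49.8 and 63.5% over all genes. With TMM scaling, 25.4% of all tested genes were called higher and 25.6% lower. After removal of the length trend 22 of the 56 were called higher and 13 lower, against 23.8 and 25.3% of all tested genes. DTX1, HES5, DLK1 and PSEN2 had no row and were not analysed here.

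Among receptors and ligands outside the core, a relative of DLL1 was lower. DLL3, a divergent Delta-like protein that acts on Notch within its own cell, had 290 and 176 counts in the IPs and 566 and 759 in the inputs, a log2 difference of -1.38 (SE 0.227, adjusted p = 0.000409). DLK2, a Delta-like homologue, was higher (1.30, SE 0.206). DLL4 had only 60 and 72 counts in the IPs and 30 and 16 in the inputs, and did not pass at 1.63 (SE 0.631, adjusted p = 0.0511), although DESeq2, total-count scaling, the fit without a count filter and the fit without the first input library passed it.

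Enzymes that modify ligand and receptor were split. MIB1, the ubiquitin ligase that lets a ligand pull on its receptor, was higher at 172.0 and 243.3 CPM in the IPs against 75.1 and 92.4 CPM in the inputs (1.31, SE 0.153). NEURL1, another ligase of this kind, was lower (-1.0, SE 0.266), but did not pass when the second IP library was left out (-0.78, adjusted p = 0.0551). Of the 5 glycosylation genes 1 was higher and 2 were lower. RFNG of the Fringe family was lower (-0.79, SE 0.17), and LFNG stood at 0.95 (SE 0.461) and did not pass, but passed with total counts alone (adjusted p = 0.045) and without the second input library (0.0219).

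The proteases that cut the receptor did not move together: 3 of 8 tested genes were higher and 3 were lower. A pair of subunits of the gamma-secretase complex marked the ends of this group. NCSTN (nicastrin) had 177.8 and 157.6 CPM in the IPs and 86.3 and 85.8 CPM in the inputs (0.96, SE 0.0911), and PSENEN had 14.5 and 10.9 CPM in the IPs and 37.6 and 28.2 CPM in the inputs (-1.37, SE 0.189). Of 8 genes of receptor turnover 3 were higher and 1 lower. FBXW7, the ubiquitin ligase subunit that marks the intracellular domain for destruction, was the highest (1.63, SE 0.151), and NUMB, an inhibitor of Notch, was the lowest (-0.52, SE 0.117), a call that ended with total counts alone (-0.25, adjusted p = 0.0985).

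**Figure D4:**
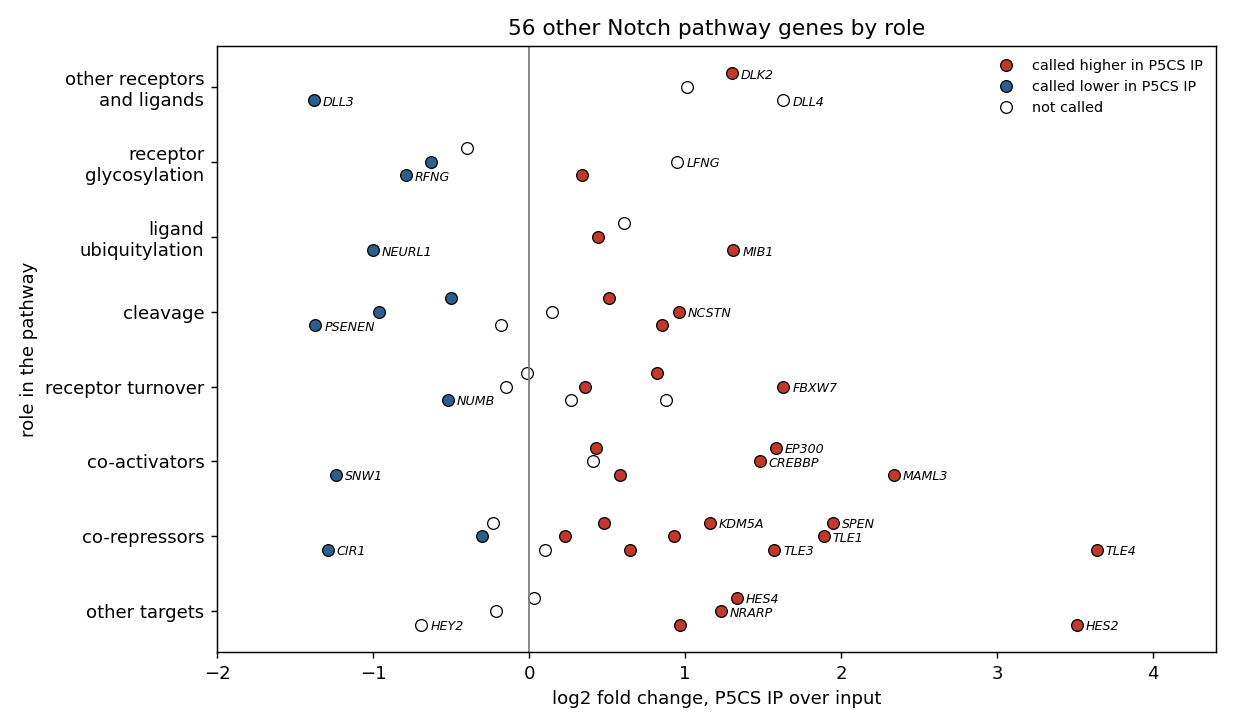
Log2 fold change, P5CS IP over input, of the 56 other pathway genes by role, filled red where called higher, blue where called lower and white where not called. Both directions occur in every role except the other targets, where 4 of 7 were higher and 0 lower.

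Co-activators and co-repressors of the nuclear complex were mostly higher. Of 7 co-activator genes 5 were higher and 1 was lower. MAML3, a relative of MAML1, had the largest difference among the co-activators, with 113.7 and 103.6 CPM in the IPs and 20.6 and 22.2 CPM in the inputs (2.34, SE 0.106). The acetyltransferase genes EP300 (1.58, SE 0.0886) and CREBBP (1.48, SE 0.076) were higher, and SNW1, which encodes the RBPJ-binding protein SKIP, was lower (-1.24, SE 0.127).

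Of 13 co-repressor genes 9 were higher and 2 were lower. SPEN, the large co-repressor that binds RBPJ directly, had 1044.0 and 1057.5 CPM in the IPs and 271.0 and 274.4 CPM in the inputs (1.95, SE 0.0714, adjusted p = 9.06e-09). The Groucho-family genes TLE1 (1.89, SE 0.0787) and TLE3 (1.57, SE 0.115) and the demethylase gene KDM5A (1.16, SE 0.106) were higher. CIR1, which encodes another RBPJ-interacting co-repressor, was lower (-1.29, SE 0.323). TLE4 stood at 3.64 (SE 1.08) on 18 and 52 counts in the IPs and 4 and 2 in the inputs. Its call ended in the edgeR fit with the length trend removed and a replicate block (3.25, adjusted p = 0.0519). The call also ended without the second IP library (2.60) and without the second input (3.18).

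Of 7 further tested genes listed as targets, 4 were higher and none was lower. Over all tested genes 25.4% were higher and 25.6% lower. Whether each of the listed genes responds to Notch in these cells was not tested. HES4 had 15.2 and 21.8 CPM in the IPs and 7.85 and 6.88 CPM in the inputs (1.33, SE 0.213). HES2 had 128 and 80 counts in the IPs and few, 2 and 18, in the inputs (3.51, SE 0.771, adjusted p = 0.00287). It stood at 2.71 without the first input library and at 5.65 without the second. NRARP, which encodes a feedback inhibitor of Notch, was higher (1.23, SE 0.433), but did not pass when the second IP library (0.87, adjusted p = 0.17) or the first input (0.76, 0.139) was left out. HEY2 was not called (-0.69, SE 0.899) on 12 and 20 counts in the IPs and 42 and 14 in the inputs.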

How the data were processed

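RIP-seq libraries of P5CS IP and of input RNA (2 each) were compared. Per the labels' protocols, RNAiso Plus served for RNA isolation and a TruSeq kit for library preparation. Tools named by the submitters' processing notes are STAR 2.7.10a, fastp 0.23.2, DESeq2 and featureCounts, with the build hg38. No source used here gives the annotation or the strand setting. The authors deposited 1 table with a whole-number count and an FPKM value per gene and library. Of 21373 rows, 1 repeated a symbol with identical values and was dropped. Gene model lengths were recovered from the deposited counts and FPKM. The deposited comparison, per the file headers, holds a mean normalised signal, a log2 fold change with its error, a test score and p-values. Of deposited counts from 1 to 30, 85.76 to 86.4% were even, as would follow if the 2 mates of a pair were each counted.

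The deposited counts were fitted with glmQLFit and glmQLFTest of edgeR 4.0.16 (R 4.3.3) after TMM scaling, without a replicate term. The filter filterByExpr left 17304 genes, and 2 residual degrees of freedom remained. SE is the log2 fold change over the root of F. The script was tested on simulated data. Alternatives were DESeq2 1.42.0, other scalings, no filter, a replicate block, a lowess length trend (span 0.3) removed, and leaving out each library. The members and the pathway list were chosen with earlier results of these data known. Pathway genes named are those called at an absolute log2 fold change of at least 1 and the highest and lowest of each role, and the NOTCH2NL genes and FAM120B were added after values were seen. Coordinates are those of RefSeq GRCh38.p14.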

Additional observations from a re-analysis of the deposited data

How the results depend on the processing

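All 110 values of the 10 Notch genes under the 11 alternatives kept their direction and their side of the threshold, and each alternative called 9 of the 10 genes higher and 1 lower. Their log2 fold changes ranged over the alternatives from 0.37 to 1.08 for NOTCH1, 0.49 to 1.27 for NOTCH2, 0.69 to 1.35 for NOTCH3, 1.97 to 2.35 for DLL1, 1.63 to 2.27 for HES1, 0.91 to 1.65 for HEY1 and -1.15 to -0.54 for RBPJ. Of 275 values of the 25 named pathway genes, 261 kept both, 7 lost the call, 6 gained it and 1 reversed, that of HEY2 without the first input library (0.42, adjusted p = 0.865, and -1.31 to 0.42 over the fits that leave out a library), and the cause was not tested. With total counts alone, 7 of the other pathway genes were called lower instead of 11, and the cause was not tested. Over all tested genes the lower calls went from 25.6 to 18.6% with the same change of scale. The median log2 fold change of all tested genes went from -0.01 to 0.25. The count columns give an IP and an input the same replicate number, and the labels do not say whether these were prepared together. Libraries of the same number did not deviate together over the genes (correlation of deviations 0.000153), which cannot settle that. The fit with the replicate block called 9 Notch genes higher and 1 lower, and 29 and 12 of the other pathway genes. HEY1, HES1 and DLL1 rest on 70 to 396 counts a library, which limits their precision. If the mates of a pair were each counted, the fragments behind these and all other counts given here are fewer than the counts. Leaving out a library leaves 1 group with a single library, assumed to vary like the other group.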
